A study of Mus musculus with 144 samples.

Results

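Small nucleolar RNAs (snoRNAs) are short RNAs of the nucleolus, and 73 genes that encode them were measured in mouse whole blood. They were chosen as the probe sets annotated to exactly 1 gene symbol beginning with Snord or Snora, with the brightest probe set kept where a gene had more than 1, and they made up 73 of the 22180 genes with such a probe set. Of these, 47 were Snord genes, which encode C/D box snoRNAs, and 26 were Snora genes, which encode H/ACA box snoRNAs. A further 43 probe sets named a snoRNA together with another gene and were not counted as members. Snora33 and Snora19 each had a second probe set, and neither second probe set was called differently from the first, although that of Snora19 held the same values as the first and is no separate measurement.

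Male C57BL/J6 mice, 7 weeks old at purchase, were anesthetized and received a single suspension placed at the base of the tongue, which they drew into the lungs. The suspension held multiwalled carbon nanotubes (MWCNT) at 1, 10, 40 or 80 µg, crocidolite asbestos at 120 µg, or no particle in the dispersion medium alone (DM, the vehicle that all groups received). Blood was taken at 1, 6 or 12 months after that dose, so that each month had its own DM group and 5 exposed groups. The 18 groups held 6 to 9 mice each.

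A C/D box snoRNA pairs with ribosomal RNA and places a ribose methylation with the protein fibrillarin, whereas an H/ACA box snoRNA directs pseudouridylation with the protein dyskerin. A few members of both classes act in the cutting of the ribosomal RNA precursor instead. Most mammalian snoRNAs lie in introns, many of them in genes for ribosomal proteins, translation factors or long non-coding RNAs (lncRNAs), and are released when the intron is spliced out and trimmed. Mature red cells of mammals have no nucleus, so nucleolar RNA in blood is expected from nucleated cells and from young red cells that still hold RNA. A probe set for an intronic snoRNA can read the mature RNA and the unspliced RNA of the gene that holds it, and these arrays do not separate the 2.

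Values are log2 array signals, normalized together by the authors, so that a difference of 1 is a doubling. Of the 73 members, 60 lay above the median signal of all probe sets (36 C/D box and 24 H/ACA box genes), while 13 lay at or below 1.52, the level under which 90% of 1105 olfactory receptor probe sets lay (11 C/D box and 2 H/ACA box genes). The members varied between mice of the same group more than most genes did: the median SD within a group was 0.65 for C/D box genes and 0.59 for H/ACA box genes, against 0.40 over all probe sets with 1 symbol. The markers of blood cells were present in all groups. The 2 measured red cell markers averaged 8.92 to 9.63 over the groups and the platelet markers 10.2 to 10.7, while the lung epithelial markers averaged 0.96 to 1.37, under that olfactory receptor level. A median correlation with the other arrays under 0.85 was found for 13 arrays, none of them from DM mice at 12 months.

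The mean over the members of a class was highest of all 18 groups in the DM mice at 12 months. Over the 47 C/D box genes it was 5.27 ± 0.21 (SD, n = 8, from 5.01 to 5.61) in that group, against 4.67 ± 0.36 (SD, n = 7) in DM mice at 1 month and 4.60 ± 0.38 (SD, n = 8) at 6 months. The 12 groups of 1 and 6 months had C/D box means between 4.45 and 4.88, and the 5 exposed groups at 12 months had means between 4.57 and 4.85. The exposed group means at 12 months were thus within the range of the earlier months, and the DM mean of that month was above it. In whole blood, fewer cells of a type and less RNA per cell cannot be told apart.

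For the H/ACA box genes the DM mice at 12 months were again highest, while the order of the other groups was not the same as for the C/D box genes. Their mean was 4.96 ± 0.21 (SD, n = 8, from 4.75 to 5.37) in DM mice at 12 months, between 4.31 and 4.72 in the groups of 1 and 6 months, and between 4.40 and 4.77 in the exposed groups at 12 months. The highest of these was 1 µg MWCNT, which lay above all groups of 1 and 6 months. The groups overlapped mouse by mouse: 21 mice of the other groups were above the lowest DM mouse of 12 months in the C/D box mean, and 34 in the H/ACA box mean. The mice given 80 µg MWCNT did not overlap with DM at 12 months in the C/D box mean, where they ran from 4.14 to 4.99. Because the exposed groups of a month are all set against 1 group of DM mice, a high DM group and a lowering by exposure cannot be told apart in these comparisons.

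**Figure D1:**
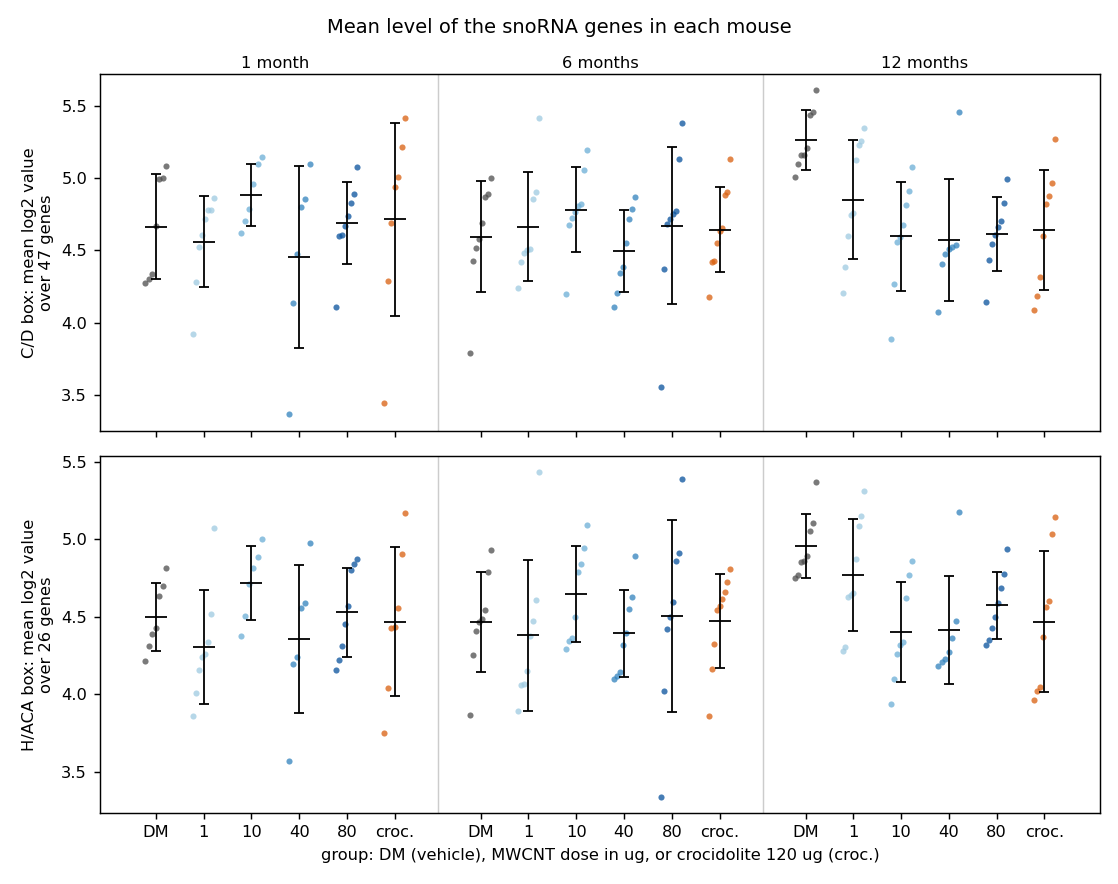
Mean log2 value over the 47 C/D box genes (upper panel) and the 26 H/ACA box genes (lower panel) in each mouse, by group and month. Each point is a mouse, and the bars give the group mean and SD. The DM mice at 12 months averaged 5.27 and 4.96, the highest of the 18 groups in both panels.

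Gene by gene, the DM group at 12 months had the highest of the 18 group means for 46 of the 73 members. This was so for 32 of 47 C/D box genes (68.1%) and 14 of 26 H/ACA box genes (53.8%). Among all 23521 probe sets with 1 symbol the share was 7.45%, and among those above the median signal it was 9.55%. The group that came next was 10 µg MWCNT at 1 month, which was highest for 7 members. The members were read on the same arrays of the same mice. Counts of members, here and below, are therefore not counts of independent results.

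At 1 and 6 months the snoRNA genes did not differ between exposed and DM mice at the threshold used here, an adjusted p under 0.10 over all 23521 probe sets (limma). None of the 73 passed in any of the 10 exposed groups, in either dose trend, or between crocidolite and 80 µg MWCNT. Nor did any of the other probe sets, except 0.0085% that were called lower with 1 µg at 1 month. At an unadjusted p under 0.05, between 0 and 3 members passed in either direction in each of these comparisons, where 0.872% to 7.78% of all probe sets did. The analysis of variance named in the methods called none at its false discovery rate and from 0 to 4 members at an unadjusted p under 0.05. Median changes of the members against DM ran from -0.22 to 0.23 on the log2 scale over the 10 groups, with both signs. The p-values here and below measure the spread between these mice.

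At 12 months most snoRNA genes were lower than DM in every exposed group. The median log2 change over both classes was -0.33 with 1 µg MWCNT, -0.64 with 10 µg, -0.63 with 40 µg, -0.49 with 80 µg and -0.62 with crocidolite. Of the 73 members, 62 were lower with 1 µg, 68 with each of 10, 40 and 80 µg, and 66 with crocidolite, whether or not they passed the test. Across all probe sets tested, 52.4%, 59.3%, 53.5%, 53.1% and 60.7% were lower in the same order. Brighter probe sets shifted too: the median of those above the median signal was -0.02, -0.24, -0.15, -0.18 and -0.14. These 5 comparisons share the same 8 DM mice and are not independent of each other.

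**Figure D2:**
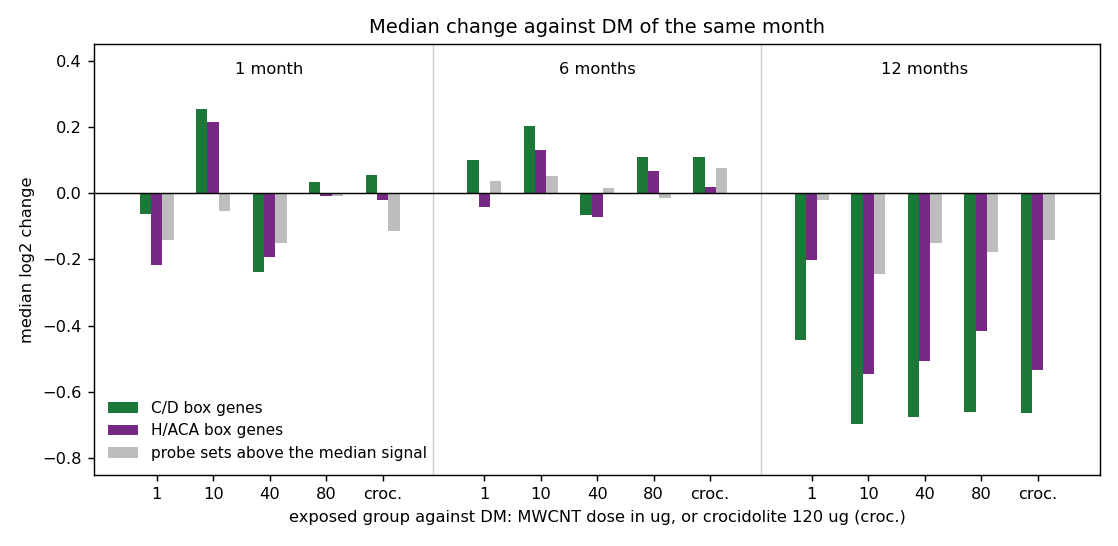
Median log2 change against DM of the same month for the C/D box genes, the H/ACA box genes and all probe sets above the median signal, for each exposed group. At 12 months the C/D box medians lie between -0.70 and -0.44 and the H/ACA box medians between -0.55 and -0.20, and at 1 and 6 months both classes lie on either side of 0.

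The shift at 12 months was larger for C/D box than for H/ACA box genes in each exposed group, although this difference was not tested. The C/D box medians were -0.44, -0.70, -0.67, -0.66 and -0.66 with 1, 10, 40 and 80 µg MWCNT and crocidolite. The H/ACA box medians were -0.20, -0.55, -0.51, -0.42 and -0.53 in the same order. Read as counts at an unadjusted p under 0.05, 40 members were lower with 10 µg (10.9% of all probe sets), 34 with 40 µg (7.47%), 31 with 80 µg (9.8%) and 39 with crocidolite (10.4%), but 12 with 1 µg (2.25%).

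The MWCNT dose trend at 12 months was the comparison that called most members. It was fitted over DM and the 4 doses as a line in log2(dose + 1), and is given as the log2 change from DM to 80 µg along that line. Of the 73 members, 21 were called lower along the trend, 17 of 47 C/D box and 4 of 26 H/ACA box genes. Of these, 20 changed by more than 1.5-fold. None was called higher. Of all probe sets tested, 5.07% were called lower and 1.11% higher, and among those above the median signal 9.93% were called lower. The median change along the trend was -0.53, with 66 of 73 members below 0. A gene said to fall along the trend was called lower by this line. The line includes DM, so such a call does not show a further fall from dose to dose. The C/D box means were 4.598, 4.57 and 4.615 with 10, 40 and 80 µg, and the H/ACA box means 4.399, 4.414 and 4.573.

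The 6 C/D box genes that fell most along the trend were Snord61, Snord111, Snord71, Snord58b, Snord15a and Snord72. Snord61, which in humans guides methylation of the small-subunit ribosomal RNA, changed by -1.58 (SE 0.39, adjusted p = 0.020). Snord111, a guide for the large-subunit RNA in humans, changed by -1.47 (SE 0.39, adjusted p = 0.029). Snord71, whose human counterpart guides methylation of the short RNA of the large subunit, changed by -1.39 (SE 0.30, adjusted p = 0.013). All 3 were also called with 80 µg alone, a comparison that shares its mice with the trend. Snord58b changed by -1.30 (SE 0.36, adjusted p = 0.038), Snord15a by -1.08 (SE 0.33, adjusted p = 0.051) and Snord72 by -1.05 (SE 0.37, adjusted p = 0.097), all 3 being large-subunit guides in humans. The other 11 C/D box genes called lay between -0.99 (Snord47, held in an intron of the lncRNA gene Gas5) and -0.70 (Snord55). They included Snord13, which has no host gene and in humans assists an acetylation of the small-subunit RNA, at -0.88.

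Of the H/ACA box genes, Snora30, Snora73b, Snora73a and Snora61 fell along the trend. Snora30, a guide for the large-subunit RNA in humans, changed by -0.96 (SE 0.30, adjusted p = 0.061). Snora73b (-0.74, SE 0.25, adjusted p = 0.082) and Snora73a (-0.64, SE 0.23, adjusted p = 0.094) are 2 copies of the RNA that takes part in cutting the ribosomal RNA precursor. They lie in the same host gene and have near-identical copies, so that their signals may not be separate. Snora61 changed by -0.53 (SE 0.18, adjusted p = 0.087). Snora33, the brightest member, was at -0.40 along the trend by the probe set counted here and at -0.19 by its second probe set. Against DM at 12 months these were -0.36 and 0.02 with 80 µg, and -0.23 and -0.37 with crocidolite. In DM mice from 6 to 12 months they were 0.58 and 0.04. None of these was called.

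**Figure D3:**
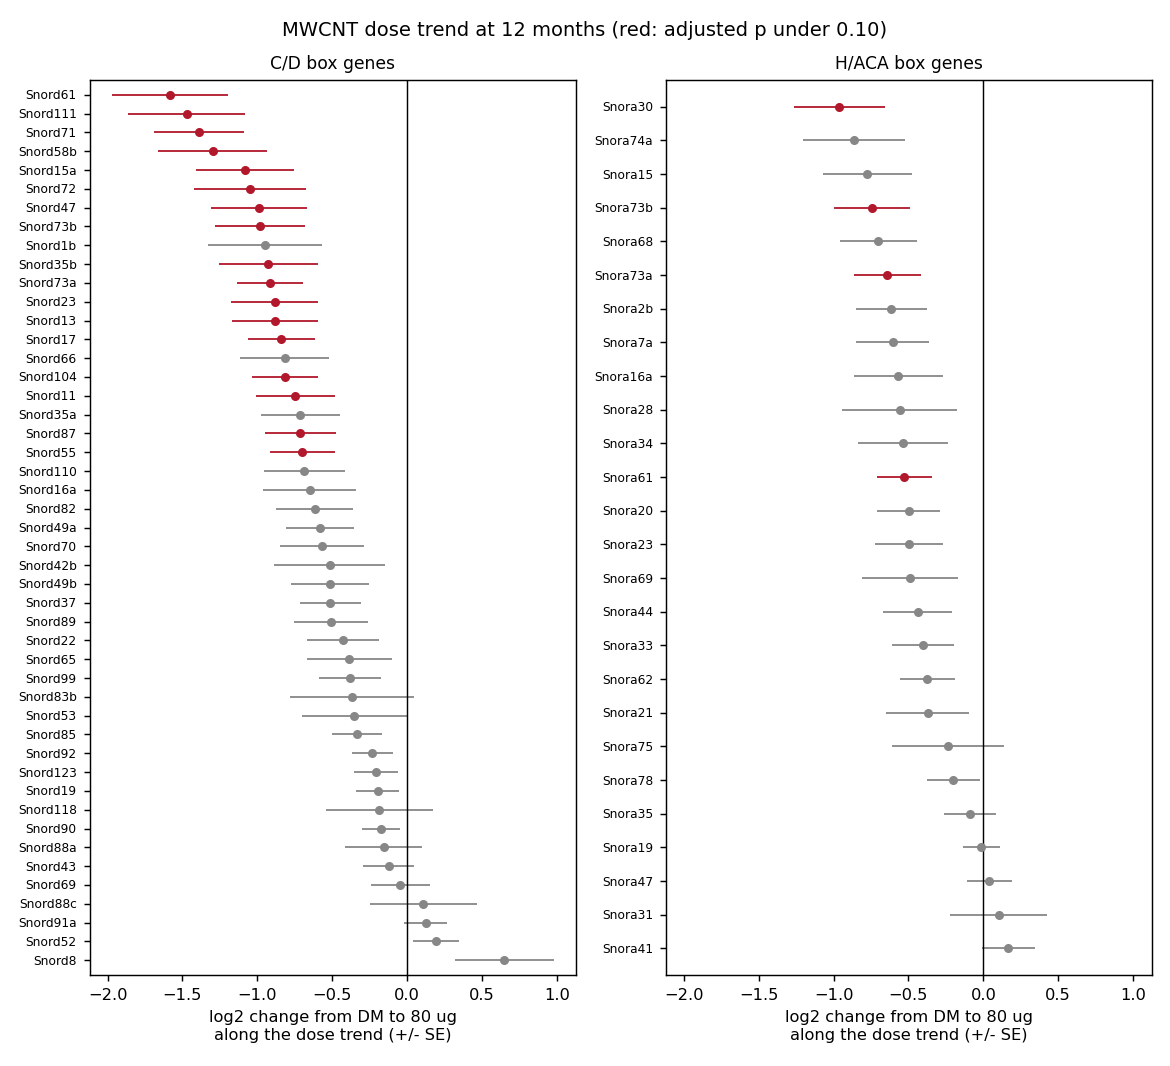
Log2 change from DM to 80 µg along the MWCNT dose trend at 12 months for each of the 47 C/D box genes (left) and 26 H/ACA box genes (right), with the SE as bars. Red marks the 17 and 4 genes with an adjusted p under 0.10, and 66 of the 73 points lie below 0.

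No call of the trend was kept when the DM mice were left out. When the trend was fitted over the 4 MWCNT doses alone, 0 members passed. At an unadjusted p under 0.05, 6 were lower and 1 was higher, and the median change was -0.27. This fit has fewer mice and no dose of 0, so the lost calls may partly follow from lower precision. Its line also covers a shorter range of doses, so its median cannot be set directly against that of the trend with DM. With the dose in µg in place of its logarithm, 1 member passed.

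The mice given 80 µg MWCNT had 6 snoRNA genes called lower than DM at 12 months, the 5 C/D box genes Snord61, Snord111, Snord71, Snord17 and Snord104 and the H/ACA box gene Snora30. Of all probe sets tested 0.986% were called lower, and 1.89% of those above the median signal. The values of Snord61 ran from 5.58 through a median of 6.60 to 6.88 in DM mice and from 3.95 through 4.85 to 5.56 in the mice given 80 µg. Every exposed mouse thus lay under every DM mouse, and the change was -1.60 (SE 0.47, adjusted p = 0.095), or 3.03-fold. The values of Snord71 ran from 5.63 through 6.27 to 6.96 in DM mice and from 3.44 through 4.79 to 5.57 with 80 µg, again without overlap, and the change was -1.57 (SE 0.37, adjusted p = 0.038), or 2.96-fold.

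Snord17 and Snord104 are guides for the large-subunit RNA in humans. The values of Snord17 ran from 7.30 through 7.48 to 8.09 in DM mice and from 5.80 through 6.64 to 7.05 with 80 µg, and those of Snord104 from 7.53 through 7.94 to 8.32 and from 6.65 through 6.97 to 7.41. Neither gene had a mouse of one group within the range of the other. The changes were -0.95 for Snord17 (SE 0.27, adjusted p = 0.087) and -0.91 for Snord104 (SE 0.27, adjusted p = 0.093), both between 1.88-fold and 1.93-fold. The members without overlap were thus 4, Snord104, Snord17, Snord61 and Snord71, and 0.174% of all probe sets had every exposed mouse under every DM mouse.

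Snord111 and Snora30 overlapped between the groups. The values of Snord111 ran from 4.21 through 5.56 to 6.45 in DM mice and from 2.82 through 4.55 to 4.88 with 80 µg, a change of -1.59 (SE 0.47, adjusted p = 0.096). The values of Snora30 ran from 4.59 through 5.67 to 6.16 in DM mice and from 3.54 through 4.35 to 4.84 with 80 µg (2.35-fold lower, adjusted p = 0.096). Most exposed mice lay inside the DM range for Snord111, and the highest did for Snora30.

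The DM mice of the earlier months had values near those of the exposed mice for these genes. Snord111 had a median of 4.71 in DM mice at 1 month (2.90 to 6.27) and 4.81 at 6 months (3.47 to 5.71), which lies inside the ranges of both 12-month groups. Snord61 had a median of 5.32 in DM mice at 1 month (3.65 to 6.21) and 5.26 at 6 months (1.81 to 6.30). For Snord71 the medians were 5.41 (4.11 to 6.00) and 5.46 (3.70 to 6.18), and for Snord17 they were 6.26 (5.63 to 7.01) and 6.53 (5.09 to 7.23). For Snord104 the medians were 7.17 (6.48 to 7.59) and 7.03 (5.88 to 7.79), and for Snora30 they were 4.53 (3.88 to 4.99) and 3.88 (2.49 to 5.07). In the 5 genes other than Snord111 the DM medians of 1 and 6 months lay within the range of the mice given 80 µg at 12 months and under the lowest DM mouse of 12 months.

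**Figure D4:**
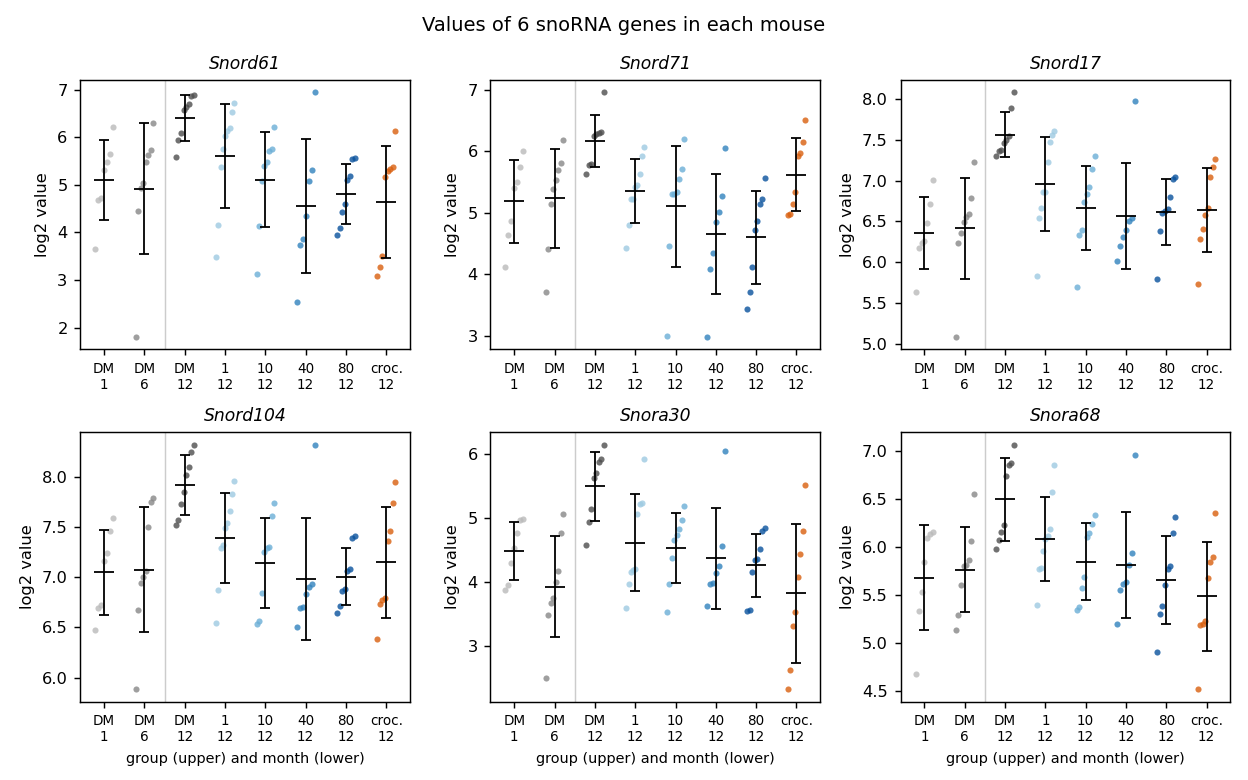
Log2 values of Snord61, Snord71, Snord17, Snord104, Snora30 and Snora68 in each mouse, for DM at 1, 6 and 12 months and for the exposed groups at 12 months. Bars give the mean and SD. The DM group at 12 months has the highest mean in each panel, although 1 mouse given 40 µg reaches the top of its range or above for Snord61 and Snord104, and the DM mice at 1 and 6 months spread over the range of the exposed mice.

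Mice given crocidolite had 7 snoRNA genes called lower than DM at 12 months, the C/D box genes Snord61, Snord15a, Snord11, Snord110 and Snord17 and the H/ACA box genes Snora30 and Snora68, where 2.02% of all probe sets were called lower and 3.65% of the brighter ones. Snord61 ran from 3.08 through 5.23 to 6.13 in the crocidolite mice and changed by -1.76 (SE 0.47, adjusted p = 0.039), or 3.39-fold. Snora30 ran from 2.32 through 3.81 to 5.51 and changed by -1.67 (SE 0.37, adjusted p = 0.0088), or 3.19-fold. Both overlapped with the DM mice, since the spread over the crocidolite mice was wide. Snord17, at 5.73 through 6.63 to 7.26 with crocidolite, was the member without overlap (0.123% of all probe sets), and it changed by -0.92 (SE 0.27, adjusted p = 0.062).

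The other 4 genes called with crocidolite overlapped between the groups. Snord15a ran from 3.69 through 4.0 to 5.22 in DM mice and from 1.75 through 2.75 to 4.03 in crocidolite mice (2.68-fold lower, adjusted p = 0.048). Snord11, which lies in an intron of the C/D box core protein gene Nop58, ran from 3.70 through 4.87 to 5.86 and from 2.61 through 3.56 to 4.99 (2.26-fold lower, adjusted p = 0.042). Snord110, which lies in the core protein gene Nop56, ran from 7.72 through 8.09 to 8.68 and from 6.18 through 7.32 to 8.18 (2.01-fold lower, adjusted p = 0.099). Snora68 ran from 5.98 through 6.48 to 7.07 and from 4.52 through 5.46 to 6.36 (2.01-fold lower, adjusted p = 0.078). Most crocidolite mice were below the DM median in these 4 genes, and the highest were inside the DM range. No member was called higher, where 0.455% of all probe sets were. Snora31 was 0.94 above DM, the most of the 7 members that were higher, and did not pass (adjusted p = 0.23).

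The lower MWCNT doses called 1 member each or none. With 10 µg the C/D box gene Snord11 fell by 1.44 (SE 0.32, adjusted p = 0.058), where 0.132% of all probe sets were called lower. Its values ran from 2.06 through 3.55 to 4.17 with 10 µg, against 3.70 through 4.87 to 5.86 in DM mice, so that the highest exposed mice lay inside the DM range. The member without overlap with 10 µg was Snord16a, where 0.0765% of all probe sets had none, and it did not pass the test. With 40 µg the C/D box gene Snord73a fell by 1.25 (SE 0.28, adjusted p = 0.060), where 0.0298% of all probe sets were called lower, from 2.92 through 3.69 to 4.69 in DM mice to 1.91 through 2.42 to 2.93 with 40 µg. The highest mouse given 40 µg was just above the lowest DM mouse. With 1 µg limma called 0 members of any class and 0 of all probe sets, 12 members were lower at an unadjusted p under 0.05, and the analysis of variance also called 0, with 12 at an unadjusted p under 0.05.

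Crocidolite and 80 µg MWCNT did not differ at 12 months in any member at the adjusted threshold. At an unadjusted p under 0.05, 2 members were higher with crocidolite (5.63% of all probe sets) and 1 was lower (8.23%). Snord71 was 1.02 higher with crocidolite (SE 0.37, adjusted p = 0.19), running from 4.96 through 5.63 to 6.50 against 3.44 through 4.79 to 5.57. Snora73b was 0.67 higher (adjusted p = 0.31). Both materials were compared with the same DM mice above, and a p that misses the threshold does not show that they act alike.

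Among DM mice alone, snoRNA genes were higher at 12 months than at the earlier months. The median change from 6 to 12 months was 0.71, with 5 of 73 members lower, and that from 1 to 12 months was 0.50, with 6 lower, against -0.03 from 1 to 6 months. At an unadjusted p under 0.05, 41 members were higher at 12 than at 6 months (5.55% of all probe sets) and 31 higher at 12 than at 1 month (5.87%). Few passed the adjusted test. From 6 to 12 months Snord17 rose by 1.15 (SE 0.27, adjusted p = 0.069) and Snora30 by 1.57 (SE 0.37, adjusted p = 0.069), where 0.068% of all probe sets were called higher. From 1 to 12 months Snord17 rose by 1.21 (SE 0.28, adjusted p = 0.020) and Snora74a, which takes part in cutting the ribosomal RNA precursor, by 1.86 (SE 0.43, adjusted p = 0.019), where 0.383% were called higher and 1.13% lower. No member was called lower between any of these months. Snora74a ran from 3.96 through 4.54 to 5.60 at 1 month and from 5.46 through 6.79 to 7.21 at 12 months, so the groups met at their edges. From 1 to 6 months Snora47 rose by 0.65 (SE 0.19, adjusted p = 0.054), where 0.476% were called higher and 3.46% lower, at low levels of 1.15 through 1.33 to 1.94 and 1.60 through 1.79 to 3.28.

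In the exposed groups the median changes over the same months were smaller than in DM mice, and with 1 and 40 µg they were upward over both spans. The median change from 6 to 12 months was 0.28 with 1 µg, -0.19 with 10 µg, 0.05 with 40 µg, -0.01 with 80 µg and 0.01 with crocidolite, beside 0.71 in DM mice. From 1 to 12 months it was 0.35, -0.27, 0.12, -0.07 and -0.05 in the same order, beside 0.50 in DM mice. Single members passed in both directions. With 80 µg, Snora74a rose by 1.34 (adjusted p = 0.019), Snord8 by 1.14 (adjusted p = 0.046) and Snord118, the precursor-processing snoRNA that lies in no host intron, by 1.06 (adjusted p = 0.091) from 1 to 12 months, where 5.03% of all probe sets were called higher. No member fell there, where 13.3% of all probe sets were called lower. With 10 µg, Snord11 fell by 1.21 (adjusted p = 0.046) and Snord123 rose by 0.58 (adjusted p = 0.080) over that span, where 4.64% were called lower and 1.10% higher. With crocidolite, Snord123 rose by 0.60 (adjusted p = 0.054) from 6 to 12 months, where 0.893% were called higher.

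The difference of the effect between months was tested with an F test for 80 µg MWCNT and for crocidolite. For crocidolite it called 1 member, Snora30 (adjusted p = 0.094), where 0.0468% of all probe sets were called in that direction. The effect of crocidolite on Snora30 was -0.11 at 1 month, 0.70 at 6 months and -1.67 at 12 months. For 80 µg it called 0 members, 18 were past an unadjusted p of 0.05 with the effect lower at 12 than at 1 month (4.28% of all probe sets), and the smallest adjusted p was 0.77.

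Of the 73 members, 70 lay inside an annotated gene, by position, in 62 different host genes. Genes for ribosomal proteins held 19 of them, lncRNA genes 19 and other genes 32, while Snord13, Snord118 and Snord89 lay in none. Members that lay in 2 genes were counted once. Snora78, in Rps2 and the lncRNA gene Snhg9, was counted with the ribosomal protein genes. Snord8, Snord47, Snord71 and Snord87, each in an lncRNA gene and a protein-coding gene, were counted with the lncRNA genes. Along the 12-month trend, 7 of 19 members in ribosomal protein genes fell, 7 of 19 in lncRNA genes, 6 of 32 in other genes and 1 of 3 outside genes. Their median changes were -0.65, -0.57, -0.50 and -0.51, so the median was below 0 for each kind of host. Below 0 were all 19 members in ribosomal protein genes, 17 of 19 in lncRNA genes, 27 of 32 in other genes and all 3 outside genes. Of all probe sets tested, 5.07% were called lower along this trend, and 76% of those above the median signal were below 0.

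Many lncRNA hosts of snoRNAs, like ribosomal protein genes, begin transcription at a C followed by a run of pyrimidines, the terminal oligopyrimidine tract. The RefSeq windows around the start (build GRCm38.p6) were searched on the transcribed strand for a C followed by at least 4 pyrimidines, beginning within 5 bases of the annotated start, and 48 of the 62 hosts had a window. Such a run stood in 9 of 11 lncRNA hosts (81.8%) and in 3 of 10 ribosomal protein hosts (30%), against 21.2% of all 27025 genes with a window. Of the 17 ribosomal protein hosts, only those 10 had a window. The search read annotated starts alone, so a run at a start placed elsewhere was missed, and the 30% does not show that the others lack it. The starts of 6 lncRNA hosts are shown with 20 bases before the start, the start base and 9 bases after it, the run in capitals, because 4 of these genes hold Snora61, Snora73a, Snora73b, Snord104 and Snord47, which fell along the trend, 2410006H16Rik fell itself (-0.57, adjusted p = 0.066) and Snhg1 shows a start without the run.
Snhg12, chr4:132308658-132308687, plus strand, host of Snora61: gtgcaggccgttctcagtcCTTTCTCgctt
Snhg3, chr4:132353677-132353706, minus strand, host of Snora73a and Snora73b: aggcatagtcgaccacgcctgaCTTCCggg
2410006H16Rik, chr11:62602857-62602886, plus strand, host of Snord49a, Snord49b and Snord65: ggcgctcacgcgccgtCTTTCTCTgcggcc
Gm36220, chr11:106500895-106500924, plus strand, host of Snord104: ggccacacgtccattccggcCTCTTatcga
Gas5, chr1:161035146-161035175, plus strand, host of Snord47, the second of 2 annotated starts, the first of which has no run: gactcagccgccatctcagcCTTTCggagc
Snhg1, chr19:8723467-8723496, plus strand, host of Snord22, with no run in the window: cacacgttgttcttgtcggcctcatttttc
Snhg12 also holds Snora16a, Snora44 and Snord99, which were not called along the trend. The run also stood in lncRNA hosts not shown. These were Gm17344, which holds Snord71, and 1110038B12Rik, Snhg18 and Snhg9, which hold Snord52, Snord123 and Snora78, members not called. A match of letters is a description of the annotated start and was not set against the changes. The starts shown were chosen partly by the calls, so they cannot be read as a link between the run and the changes.

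Of the 62 hosts, 47 were measured by a probe set with 1 symbol, and along the 12-month trend 12 of them fell, none rose, 43 were below 0 and the median change was -0.30, where 5.07% of all probe sets and 9.93% of the brighter ones were called lower. Of the brighter probe sets, 76% were below 0 along the trend, with a median of -0.20. With 80 µg none passed (median -0.26), with crocidolite 4 fell (median -0.18), and from 6 to 12 months in DM mice 1 rose (median 0.21). Over the 61 pairs of a member and a measured host, the member lay below its host in 42 along the trend, in 33 with 80 µg and in 42 with crocidolite. The median difference between a member and its host was small, at -0.07, -0.09 and -0.20 in that order. In DM mice from 6 to 12 months the member lay above its host in 46 of 61, with a median difference of 0.23. These differences between a snoRNA and its host were not tested.

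Among the 16 members that fell along the trend and had a measured host, 7 had a host that fell as well. They were Snord17 in Snx5, Snord23 in Nop53, Snord71 in Ap1g1, Snord73a and Snord73b in Rps3a1, Snord87 in Snhg6 and Snora61 in Snhg12. Snord61 changed by -1.58 where its host Rbmx, an RNA-binding protein gene, changed by -0.40 and did not pass (adjusted p = 0.28). Snord111 changed by -1.47 where its host Sf3b3, a splicing factor gene, changed by -0.52 (adjusted p = 0.14), and Snora30 by -0.96 where Srcap, a chromatin remodeller gene, changed by -0.42 (adjusted p = 0.31). Snord58b changed by -1.30 where the ribosomal protein gene Rpl17 changed by -0.22 (adjusted p = 0.58). In these 4 pairs the snoRNA passed and the host did not. Snord71 changed by -1.39 and its host Ap1g1 by -0.60 (adjusted p = 0.079), and Snord17 by -0.84 and its host Snx5 by -0.39 (adjusted p = 0.097). Snord87, at -0.71, lay above its host Snhg6 at -0.95 (adjusted p = 0.071) and below its other measured host Mcmdc2 at -0.15. The 16 members were picked because they fell along this same trend, and their hosts were not, so their order does not describe members in general. Over all 61 pairs, 19 members lay above their host, and the median difference was -0.07.

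**Figure D5:**
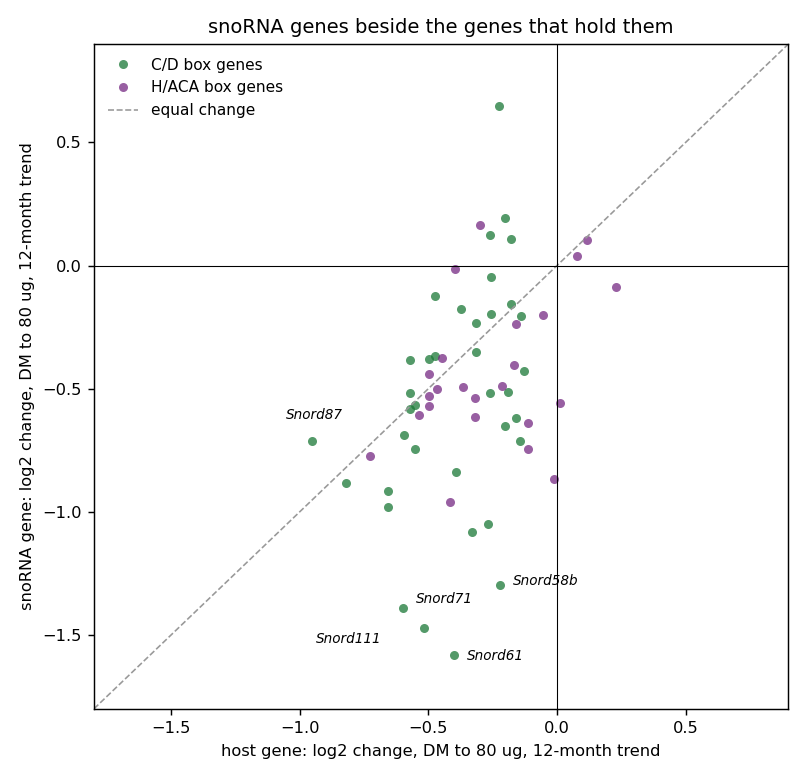
Log2 change from DM to 80 µg along the 12-month trend of each snoRNA gene against that of the gene that holds it, for the 61 pairs with a measured host. The dashed line marks equal change, and 42 of the pairs lie below it.

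The proteins that work with snoRNAs shifted in the same direction, and few passed. Of the C/D box core proteins, 3 were measured, and Nop56 fell along the 12-month trend by 0.60 (SE 0.21, adjusted p = 0.095) while Nop58 was at -0.55 (adjusted p = 0.11) and Snu13 at -0.25. Fbl, which encodes fibrillarin, had no probe set of its own. Of the 4 H/ACA core protein genes 1 fell, Nop10 at -0.58 (adjusted p = 0.080), and with crocidolite Nhp2 fell by 0.60 (adjusted p = 0.083). Of 14 measured genes for snoRNA assembly, transport and the U3 particle, Tcof1 (-0.77, adjusted p = 0.079) and Tgs1 (-0.74, adjusted p = 0.082) fell along the trend. The median of this list was -0.25. Of the 16 measured lncRNA genes named as snoRNA hosts, Snhg12, Snhg5 and Snhg6 fell, and the median was -0.13. None of these 4 lists had a gene called with 80 µg against DM.

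Other small nuclear and nucleolar RNAs followed the snoRNAs in part. The Cajal body RNAs, which guide the modification of splicing RNAs, were lower along the trend in 5 of 5 genes with a median of -0.61, and Scarna10 (-0.61, adjusted p = 0.081) and Scarna17 (-0.98, adjusted p = 0.030) passed. Their median was -0.72 with 80 µg, where Scarna17 passed (-1.09, adjusted p = 0.093), and with crocidolite Scarna6 passed (-1.10, adjusted p = 0.082). In DM mice their median rose by 0.79 from 6 to 12 months, with none called. Of 7 other small RNA genes, 3 fell along the trend, namely Rnu3a, the U3 snoRNA (-1.34), Rpph1, the RNA of ribonuclease P (-0.65), and Terc, the H/ACA-type RNA of telomerase (-1.04). With crocidolite Rpph1 fell by 1.00 (adjusted p = 0.032). The microRNA genes averaged 1.30 to 1.46 over the groups, under the olfactory receptor level, so that a shift could hardly have been seen in them. Of 472, 2 rose and 1 fell along the trend and the median was 0.07, and with crocidolite 2 rose, 9 fell and the median was -0.10.

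Markers of lymphocytes moved with the dose trend at 12 months. Of 6 measured B cell markers, 5 fell (Blnk, Cd79a, Cd79b, Ebf1 and Ms4a1), and of 6 measured T cell markers 4 fell (Bcl11b, Cd3d, Cd3g and Cd8a), with list medians of -0.66 and -0.64. Of 5 monocyte markers 1 fell, Ly6c2, and no marker of natural killer cells, neutrophils, red cells, platelets or lung epithelium passed. The mean over the B cell markers ran from 6.37 to 7.29 in DM mice, from 5.88 to 6.54 with 80 µg and from 6.06 to 7.32 with crocidolite. The mean over the T cell markers ran from 4.38 to 5.20 in DM mice, from 3.6 to 4.48 with 80 µg and from 3.54 to 5.47 with crocidolite. The crocidolite mice thus spanned the whole DM range of both lists, and the markers called in that comparison were the platelet genes Gp9 and Pf4. With 80 µg the markers called were Blnk, Ebf1 and Cd8a. From 6 to 12 months in DM mice no marker of any of these lists was called, while from 1 to 12 months 2 T cell and 4 natural killer cell markers fell and 2 platelet markers rose. No list's defining markers were at the background level in the blood, apart from those of lung epithelium. Their part in the snoRNA results was not tested.

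Array spread also moved with exposure at 12 months. The median interquartile range of an array's deviations was 0.583 in DM mice, 0.593 with 1 µg, 0.634 with 10 µg, 0.615 with 40 µg, 0.672 with 80 µg and 0.615 with crocidolite, against 0.514 to 0.575 in the groups of 1 and 6 months. With this spread in the fit, 2 members passed in the trend, 0 with 80 µg and 1 with crocidolite, and the median changes were -0.44, -0.42 and -0.50. Without the 13 arrays of low correlation, 7, 2 and 1 members passed and the medians were -0.52, -0.55 and -0.57. The direction of the median was thus unchanged in these 2 fits while most member calls were lost. The calls over all probe sets are not given for these fits, so a loss particular to the members cannot be read from the counts.

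Array numbers divided the 12-month groups unevenly. Each mouse was placed by its first array. Of the 8 DM mice, 7 were placed up to number 96 and 1 above it. With 80 µg these were 3 and 5, and with crocidolite 6 and 2. Of those 7 DM mice, 1 had a second array numbered above 96, and its values are the mean of both arrays. The C/D box mean was 5.30 (n = 7) and 5.01 (n = 1) in DM mice, 4.66 (n = 3) and 4.59 (n = 5) with 80 µg, and 4.59 (n = 6) and 4.78 (n = 2) with crocidolite. Up to array number 96 the groups overlapped with crocidolite, whose highest mouse was at 5.27 where the lowest DM mouse was at 5.10, and the single DM mouse of the higher numbers allows no comparison of groups there. Among the mice placed up to 96, the median change was -0.56 with 80 µg, -0.74 with crocidolite and -0.49 along the trend. Members called lower were 0 with 80 µg (of 33 probe sets called lower), 23 with crocidolite (of 1622) and 3 along the trend (of 380). Within the higher numbers, where 1 DM mouse stood for the group, the medians were -0.42, -0.27 and -0.44 and no member was called, where 16, 25 and 13 probe sets were called lower. The labels do not say what the numbers stand for.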

How the data were processed

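RNA from mouse blood was hybridized to Affymetrix Mouse Gene ST 2.1 arrays. The authors deposited a table of log2 values for 41345 probe sets on 144 arrays, and the submitters' processing notes name RMA, oligo and limma, with no versions or genome build. Arrays with the same mouse number in a group were averaged (5 mice had 2 arrays), and 23521 probe sets with 1 gene symbol were tested, while 1820 with several symbols and 16004 with none were left out.

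A mean for each of the 18 groups was fitted with limma 3.58.1 (R 4.3.3), and the moderated test was adjusted by Benjamini-Hochberg over all probe sets tested. A member was called at an adjusted p under 0.10, with a 1.5-fold count beside it, and 26 comparisons were made: 15 of exposed mice against DM of their month, 3 dose trends, 3 of crocidolite against 80 µg MWCNT, 3 between months of DM mice and 2 F tests of the effect by month. In addition 10 comparisons of months within exposed groups were made after the data were seen. Genes named are, per comparison, the members called with the largest changes in each class, the 2 of smallest p where none was called, the proteins that work with snoRNAs and the host genes, and a part of these is printed. Host genes were assigned by position alone, since the reference table used gave no strand for the members. The members, the lists and the tests were chosen with earlier results of these data known. The fit was tested on simulated data. Alternatives changed the normalization, the filter, the weights, the dose scale, the arrays and the test. The number of arrays limits the precision. Tables and figures were made with Python 3.11.15, pandas 2.3.3 and matplotlib 3.10.9.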

Additional observations from a re-analysis of the deposited data

Results flagged for a closer look

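Of 66 sets of values tested for a mouse standing apart from its group, 4 were flagged, all of them class means. Chance alone gives about 1 in 20, and the share flagged was near that. The C/D box mean of 1 DM mouse at 6 months was 3.79, the lowest of 8, with the next at 4.43. The C/D box mean of 1 mouse given 40 µg MWCNT was 5.46 at 12 months, the highest of 7, with the next at 4.54, and the same mouse had the highest H/ACA box mean of its group, 5.17 with the next at 4.47. The H/ACA box mean of 1 mouse given 1 µg was 5.43 at 6 months, the highest of 8, with the next at 4.61. The effect of crocidolite on Snora30 differed between the months by the F test (adjusted p = 0.094).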

How the results depend on the processing

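The number of members called varied most with the processing. The counts in this section are of members alone, without the share of all probe sets called in the same setting. The median change of the members kept its sign over the settings in the exposed groups against DM at 12 months and in DM mice from 6 to 12 months, from -0.62 to -0.42 with 80 µg, from -0.67 to -0.50 with crocidolite, from -0.61 to -0.27 along the trend, from -0.77 to -0.49 with 10 µg, from -0.71 to -0.44 with 40 µg and from -0.37 to -0.21 with 1 µg, and from 0.65 to 0.75 in DM mice. The -0.27 along the trend came from the fit without DM mice, whose line covers a shorter range of doses. Medians near 0 turned sign, among them crocidolite against 80 µg at 12 months (-0.11 to 0.01) and DM at 6 against 1 month (-0.10 to 0.04). Of 519 pairs of a named result and an alternative, 0 were reversed, 208 lost the call and 311 kept it. Of those kept, 42 came from taking the probe set of lowest mean per gene. They could not change, since no gene of a named result had a second probe set. Of 26 counts, 16 were 0 in every setting.

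Along the 12-month trend the count of 21 was 2 after a second quantile normalization, 7 without the low-correlation arrays, 2 with array spread in the fit, 13 with all probe sets tested, 1 with dose in µg and 0 over the 4 doses alone. With 80 µg the count of 6 was 0 after quantile normalization, 15 with only the groups compared fitted, 2 with array number as a block, 10 with array weights, 2 without the low-correlation arrays, 0 with array spread, 1 with the first array of each repeated mouse, 14 without dim probe sets, 1 with all probe sets and 3 with an intensity trend in the prior. With crocidolite the count of 7 was 18 with array weights, 1 without the low-correlation arrays, 1 with array spread and 0 by the methods' analysis of variance. With 10 µg the count of 1 was 14 with only the groups compared fitted, 5 with the array number block, 19 with array weights, 6 with the first array, 5 without dim probe sets, and 0 without the low-correlation arrays, with array spread, with all probe sets and by the analysis of variance. With 40 µg the count of 1 was 9 without dim probe sets and 0 with only the groups compared fitted, with the block, without the low-correlation arrays, with array spread and by the analysis of variance. Between crocidolite and 80 µg at 12 months the count of 0 was 1 without the low-correlation arrays.

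In DM mice from 1 to 12 months the count of 2 was 5 after quantile normalization, 15 with only the groups compared fitted, 21 with array weights, 4 with array spread and 6 without dim probe sets. From 6 to 12 months the count of 2 was 5 with array weights and 0 with only the groups compared fitted, with all probe sets and without the low-correlation arrays. From 1 to 6 months the count of 1 was 0 after quantile normalization, 2 with array weights, without the low-correlation arrays and without dim probe sets, and 3 with array spread. The crocidolite effect by month, at 1, was 2 with array weights and 0 with only the groups compared fitted, without the low-correlation arrays, with array spread, with the first array, with all probe sets and with the intensity trend. The causes of these differences were not tested, and testing fewer or more probe sets or mice changes the counts by construction.

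No paired analysis was possible because the labels give each mouse its own number, so that no number is shared across groups. The fits by range of array number, the months within exposed groups and the probe sets with several symbols were added after seeing the data. The labels alone tie the repeated arrays to 5 mice.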

Other observations

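Of the 43 probe sets that named a snoRNA together with another gene, 27 paired it mostly with the gene that holds it. At 12 months 25 of these 27 were lower along the MWCNT dose trend (median -0.52), 26 with 80 µg (median -0.47) and 26 with crocidolite (median -0.43), and from 6 to 12 months in DM mice none was lower (median 0.53). Along the trend 6 passed, namely Snord2 and Snora81 with the translation factor gene Eif4a2, Snord12 with Zfas1, Snora17 with Snhg7, Snora52 with Rplp2 and Snord34 with Rpl13a. With 80 µg the probe set of Snord2 and Eif4a2 passed, and with crocidolite those of Snord57 with Nop56 and Snord12 with Zfas1 did.

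The other 16 named the tandem copies Snord116l1 and Snord116l2, C/D box genes of an imprinted repeat cluster, and held identical values in every array, so that they count as 1 measurement. Their change at 12 months was in the opposite direction to that of the members, at 2.35 with 10 µg, 0.79 with 40 µg, 1.18 with 80 µg and 2.56 with crocidolite, but -0.23 with 1 µg, and 1.37 along the trend. None of these passed the test. From 6 to 12 months in DM mice it was -0.76.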
